A study of Mus musculus with 8 samples.

Results

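The Hedgehog genes described here are *Shh*, *Ptch1*, *Smo*, *Gli1*, *Gli2*, *Gli3*, *Hhip*, *Boc* and *Sufu*, 9 of the 54532 genes counted in mouse retinas with and without conditional deletion of *Mettl3*. They were chosen by name as the core of the pathway, though earlier results of these data were known. Bulk RNA-seq covered 8 retinal samples, 4 labelled control and 4 labelled *Mettl3* knockout (here *Mettl3*-CKO). All 8 samples were labelled as postnatal day 7, whereas the methods give day 6 for the RNA-seq collection. *Mettl3*, which encodes the catalytic subunit of the complex that writes N6-methyladenosine on RNA, was deleted in *Six3-Cre*+ animals with both *Mettl3* alleles floxed, *Six3-Cre* being a transgene that drives Cre in early retinal progenitors. Cre was thus active long before the samples were taken, and the tissue was the whole dissected retina, not sorted cells. From staining, the paper reports efficient loss of METTL3 in the central retina. The extent of deletion over the whole retina was not measured in these counts. The alleles and any Cre of the control animals were not stated, and neither was whether a sample came from 1 animal, so p-values measure only the spread between these samples, which may be technical.

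Hedgehog ligands bind Patched receptors on the receiving cell. In the absence of ligand, Patched keeps the membrane protein Smoothened inactive, and GLI transcription factors are held back by SUFU or processed into repressors. Ligand binding frees Smoothened at the primary cilium, full-length GLI proteins enter the nucleus, and *Gli1*, *Ptch1* and *Hhip* are classical genes switched on in response. In the mouse retina, ganglion cells are the known source of Sonic hedgehog, and progenitors, Müller glia and the astrocytes of the optic nerve are known receiving cells.

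*Gli1* and *Hhip* were higher in the *Mettl3*-CKO retinas, 2.64-fold and 1.76-fold by edgeR's quasi-likelihood test, and 0 of the 9 genes were lower. The 250 bases upstream of the RefSeq start of *Hhip* (GRCm38.p6, chr8:80058009-80058258, minus strand) are shown because *Hhip*, which encodes a trap for the ligand, is the higher gene with a RefSeq window. Capitals mark CCACCC, the core of the GLI binding motif.
*Hhip* upstream: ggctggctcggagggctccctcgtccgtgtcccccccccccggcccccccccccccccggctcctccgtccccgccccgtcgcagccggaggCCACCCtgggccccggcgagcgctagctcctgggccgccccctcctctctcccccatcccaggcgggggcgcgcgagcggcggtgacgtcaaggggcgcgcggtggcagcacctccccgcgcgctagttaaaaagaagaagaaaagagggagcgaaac
Windows of this kind were matched for 6 of the 9 genes (*Gli2*, *Gli3*, *Hhip*, *Ptch1*, *Smo* and *Sufu*). The full motif GACCACCCA, or TGGGTGGTC on the other strand, was present in 0 of these 6 windows and in 0.225% of 32851 windows of the same length. Its inner part CCACCC, or GGGTGG, which lies within the full motif, was found in 4 of the 6 (*Gli2*, *Gli3*, *Hhip* and *Smo*) and in 28.1% of all windows. The *Hhip* window is 76.0% G and C, against a median of 52.4% over all windows. These matches describe letters in a window and are not evidence of a bound factor.

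Total counts per sample ranged from 16227095 to 20281517, and levels are given as CPM, each count scaled to its library's total. The floor of 3 counts was 0.148 to 0.185 CPM before TMM scaling. *Mettl3* (chr14:52294841-52305128) was at 33.8, 32.5, 29.4 and 29.3 CPM in the controls and at 21.1, 29.6, 21.3 and 24.3 CPM in the *Mettl3*-CKO samples (replicates 1 to 4, the order used throughout). The log2 fold change of -0.38 did not pass in edgeR's test (standard error 0.12, adjusted p = 0.0602), but it passed in DESeq2 (adjusted p = 0.0320) and in limma voom (adjusted p = 0.0139). The second *Mettl3*-CKO sample overlapped the controls, the counts cover the whole gene and not the deleted part alone, and exons of *Tox4* overlap it on the opposite strand. Control replicate 1 stood apart from the other controls: its summed progenitor markers were 1856 CPM against 2292 to 2513, and its summed rod markers 3713 CPM against 2502 to 2899. Control replicate 4 carried 5194 CPM of lens transcripts, where no other sample exceeded 101.2 CPM, with 6 of 9 tested lens genes lower by edgeR and 0 by DESeq2, and members that the results turn on are therefore given with the range over fits that left out 1 sample. Retinal identity was visible in every sample from summed rod markers (1280 to 3713 CPM) and amacrine cell markers (1249 to 1682 CPM, 1 of 6 lower).

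To compare genes with each other, counts were divided by exonic length and by the scaled library total (FPKM). In the control retinas the mean levels followed the order *Smo* (17.0 FPKM), *Gli3* (9.28), *Ptch1* (8.89), *Sufu* (6.73), *Gli1* (3.92), *Gli2* (3.66), *Hhip* (1.49), *Shh* (1.12) and *Boc* (0.660), each over 4 samples. The ranges of neighbouring genes in this order overlapped, except that *Smo* lay above *Gli3* and *Sufu* lay above *Gli1*. In the *Mettl3*-CKO retinas *Gli1* had a mean of 10.3 ± 2.18 FPKM (SD, n = 4), which placed it above *Sufu* and next to *Ptch1* (10.8 FPKM), with ranges that overlapped. The remaining genes kept their order, from *Smo* at 20.5 FPKM to *Boc* at 0.749 FPKM. Of the 9 genes, the transducer, *Gli3* and the receptor thus had the highest mean FPKM in both groups, and the ligand and *Boc* the lowest. Other pathway genes were not part of this ranking. The order also depends on the length used. The exonic length was 14185 bases for *Ptch1* and 4995 for *Gli1*, against 7725 and 4057 bases in their longest coding transcripts (GENCODE vM21). By transcript length *Ptch1* would rise more than *Gli1*, so the closeness of these genes holds for exonic length alone.

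**Figure D1:**
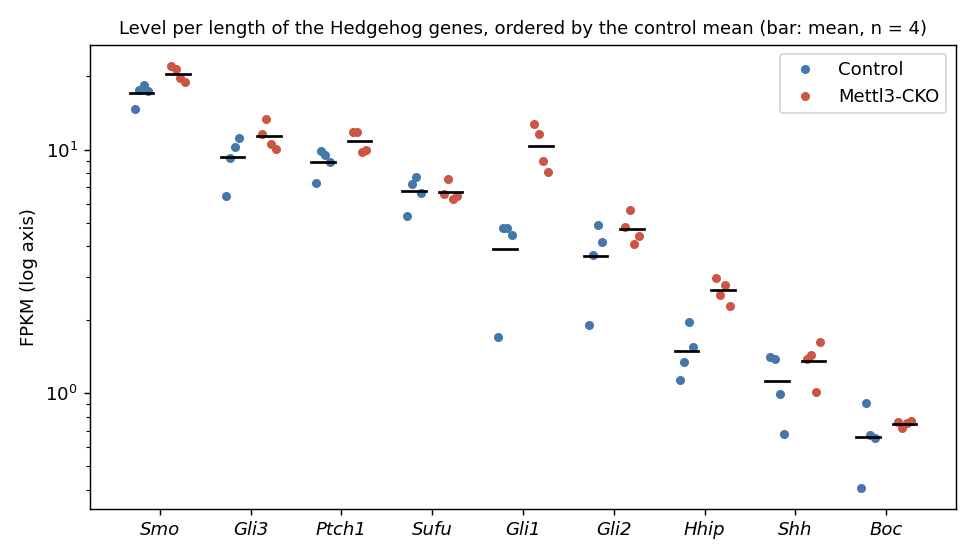
Level per exonic length (FPKM, log axis) of the 9 Hedgehog genes in each control and *Mettl3*-CKO sample, with a bar at each group mean, in the order of the control means. *Gli1* moves from 3.92 to 10.3 FPKM and, by exonic length, comes close to *Ptch1* and *Gli3*. *Shh* and *Boc* stay lowest of the 9 in both groups.

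*Shh*, the ligand (ENSMUSG00000002633, chr5:28456815-28467256, minus strand), was low in both groups. The 4 *Mettl3*-CKO samples held 71, 70, 54 and 94 counts of it and the 4 controls 75, 64, 54 and 32. After edgeR's TMM scaling, which applies to all CPM values here except the floor, these came to 3.93, 4.06, 2.87 and 4.59 CPM against 4.01, 3.92, 2.83 and 1.93 CPM. The groups overlapped, and control replicate 4 was lowest. The means were 3.86 ± 0.722 CPM and 3.17 ± 0.985 CPM (SD, n = 4 each), and the log2 fold change was 0.28 (standard error 0.24, adjusted p = 0.531, edgeR), with 0.11 to 0.42 when 1 sample was left out. With so few counts, neither a rise of this size nor its absence could be read from these samples. Exons of 9530036O11Rik and Gm26894 overlap the gene on the opposite strand, each at no more than 0.276 CPM in any sample.

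*Ptch1*, the receptor and a classical target (ENSMUSG00000021466, chr13:63508328-63573598, minus strand), was measured at 166.9, 168.0, 138.5 and 140.6 CPM across the *Mettl3*-CKO retinas and at 102.9, 139.8, 135.3 and 126.5 CPM in the controls. The *Mettl3*-CKO samples were mostly the higher ones, but control replicate 2 exceeded *Mettl3*-CKO replicate 3. The log2 fold change was 0.28 (standard error 0.11, unadjusted p = 0.0227 and adjusted p = 0.126, edgeR's test over all genes), and it was 0.20 without control replicate 1 (adjusted p = 0.129). *Ptch1* therefore did not pass the threshold of 0.05, and neither did it in any of the 15 other fits.

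*Hhip*, which encodes a membrane-anchored and secreted protein that binds and sequesters Hedgehog ligands (ENSMUSG00000064325, chr8:79965851-80058006, minus strand), was at 26.9, 23.0, 25.3 and 20.6 CPM across the *Mettl3*-CKO retinas and at 10.3, 12.2, 17.8 and 14.0 CPM in the controls. Every *Mettl3*-CKO sample lay above every control. The means of 23.9 ± 2.77 and 13.6 ± 3.22 CPM (SD, n = 4 each) differed by 0.82 on the log2 scale (standard error 0.16, adjusted p = 0.00719, edgeR). Leaving out 1 sample gave 0.70 to 0.98, the lowest without control replicate 1 (0.70, adjusted p = 0.00296), and *Hhip* passed in 15 of the 15 other fits. The only gene with overlapping exons, Gm27820, had 0 counts in all samples.

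*Boc*, a cell-surface coreceptor for the ligand (ENSMUSG00000022687, chr16:44485049-44558897, minus strand), was at 3.37, 3.19, 3.35 and 3.42 CPM across the *Mettl3*-CKO retinas and at 1.82, 4.04, 2.99 and 2.90 CPM in the controls. The *Mettl3*-CKO values lay inside the control range, and control replicate 1 was lowest. The log2 fold change was 0.19 (standard error 0.23, adjusted p = 0.677, edgeR), and it ran from 0.014 without control replicate 1 to 0.38 without control replicate 2.

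*Smo*, the membrane transducer (ENSMUSG00000001761, chr6:29735503-29761365, plus strand), was at 124.2, 119.9, 111.0 and 106.2 CPM across the *Mettl3*-CKO retinas and at 82.5, 99.1, 103.4 and 98.1 CPM in the controls. The groups did not overlap, although the gap between the nearest samples was small. The log2 fold change of 0.27 (standard error 0.09) did not pass in edgeR's test (adjusted p = 0.0886), but it passed in DESeq2 (adjusted p = 0.0486), the only 1 of the 15 other fits to do so. *Sufu*, the cytoplasmic restraint on GLI proteins (ENSMUSG00000025231, chr19:46396896-46488804, plus strand), was at 45.8, 52.4, 43.6 and 44.9 CPM across the *Mettl3*-CKO retinas and at 37.0, 50.3, 53.7 and 45.9 CPM in the controls. Here the control range enclosed all 4 *Mettl3*-CKO values. The log2 fold change was -0.0022 (standard error 0.12, adjusted p = 0.993, edgeR), with -0.099 to 0.075 when 1 sample was left out.

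*Gli1*, a GLI activator that is itself switched on by the pathway (ENSMUSG00000025407, chr10:127329882-127341974, minus strand), showed the largest difference of the 9 genes. The *Mettl3*-CKO samples reached 63.6, 57.9, 44.7 and 40.4 CPM, whereas the controls were at 8.45, 23.7, 23.9 and 22.3 CPM. The groups did not overlap, and control replicate 1 was far below the other controls. The means were 51.7 ± 10.9 and 19.6 ± 7.45 CPM (SD, n = 4 each), and the log2 fold change was 1.40 (standard error 0.26, adjusted p = 0.00576, edgeR). Without control replicate 1 the log2 fold change was 1.15 (adjusted p = 0.000112), the lowest value of the fits that left out 1 sample, the highest of which was 1.51. *Gli1* passed in 15 of the 15 other fits. *Arhgap9*, whose exons overlap *Gli1* on the opposite strand, was at no more than 0.940 CPM in any sample (log2 fold change 0.51, adjusted p = 0.553, edgeR), and Gm47200 had 0 counts.

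*Gli2*, the main transcriptional activator of the family (ENSMUSG00000048402, chr1:118834132-119053619, minus strand), was at 33.1, 38.7, 28.0 and 30.4 CPM across the *Mettl3*-CKO retinas and at 13.1, 25.3, 33.6 and 28.6 CPM in the controls. *Gli3*, which is mainly processed into a repressor (ENSMUSG00000021318, chr13:15463235-15730026, plus strand), was at 110.9, 128.3, 101.3 and 96.1 CPM across the *Mettl3*-CKO retinas and at 62.0, 88.7, 98.4 and 107.1 CPM in the controls. For both genes the groups overlapped and control replicate 1 was the lowest sample. The log2 fold change of *Gli2* was 0.37 (standard error 0.22, adjusted p = 0.324, edgeR), falling to 0.15 without control replicate 1. That of *Gli3* was 0.29 (standard error 0.15, adjusted p = 0.250, edgeR), falling likewise to 0.16 without that sample. Protein levels and GLI3 processing were not measured by these counts. The *Gli3* exons also overlap Gm6556 on the opposite strand, which was at no more than 2.90 CPM.

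**Figure D2:**
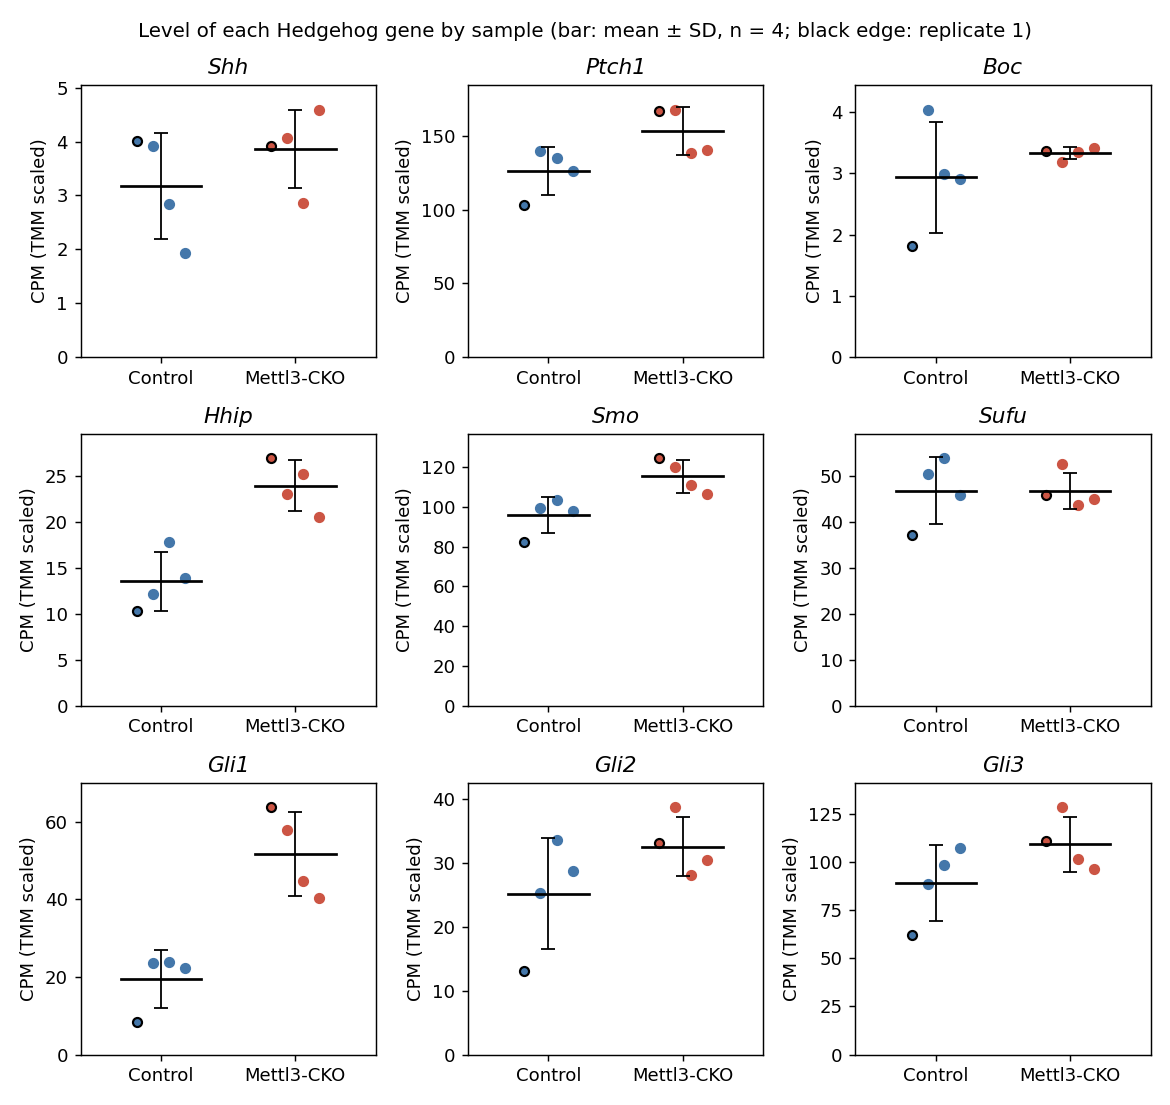
Level (CPM, TMM scaled) of each Hedgehog gene in the 4 control and 4 *Mettl3*-CKO samples, with the mean and SD as bars and replicate 1 of each group edged in black. *Gli1*, *Hhip* and *Smo* show no overlap between groups, and control replicate 1 is the lowest control for 8 of the 9 genes.

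All 9 genes had counts high enough to be tested, and 2 of them passed as higher, where 6.49% of the 17998 tested genes were called higher, 4.05% lower and 10.5% in either direction. At an unadjusted p under 0.05 in edgeR's test, 4 of the 9 genes passed in either direction, against 24.6% of tested genes. All 4 were higher, but the share of tested genes by direction was not computed at this threshold. The groups did not overlap, with *Mettl3*-CKO higher, for 3 of the 9 genes and for 9.77% of all genes tested, and with *Mettl3*-CKO lower for 0 of the 9 and for 7.58% of all. DESeq2 called 3 of the 9 higher and 0 lower, where it called 8.38% of all genes higher and 5.79% lower. Limma voom called 2 higher and 0 lower, against 11.9% and 8.71% of all genes. The median log2 fold change was 0.28 over the 9 genes and -0.01 over all tested genes, and 8 of the 9 estimates were positive. Control replicate 1 was the lowest control for all of the 9 genes but *Shh*. In its absence *Gli1* and *Hhip* still passed and the other 7 still did not.

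**Figure D3:**
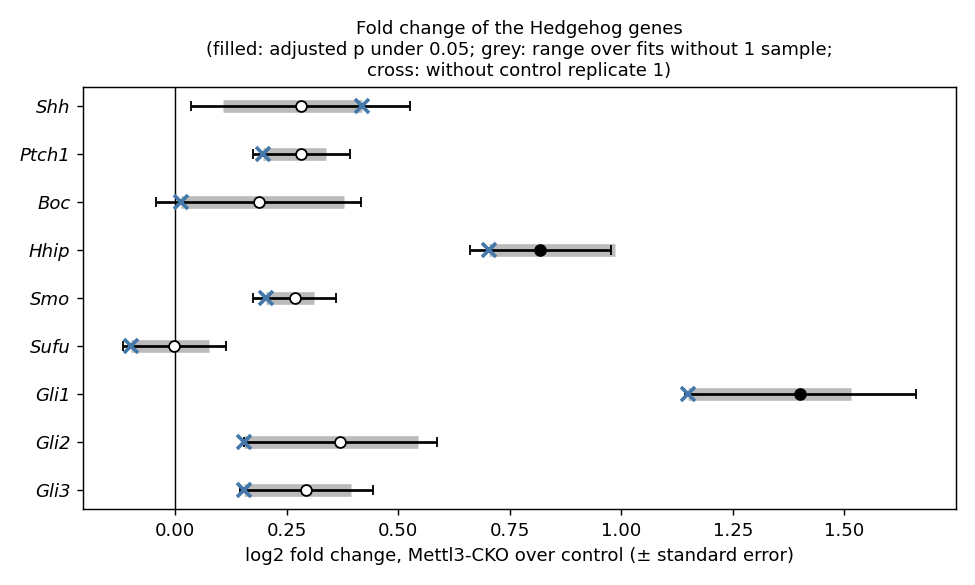
Log2 fold change (*Mettl3*-CKO over control) with its standard error for each of the 9 Hedgehog genes, beside the range of the estimates when 1 sample was left out (grey) and the estimate without control replicate 1 (cross). *Gli1* at 1.40 and *Hhip* at 0.82 stand above the remaining genes, whose estimates lie between -0.0022 and 0.37.

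Bulk RNA cannot separate a larger number of cells that express a gene from more RNA per cell, so markers of the cell types that could hold Hedgehog transcripts were set beside these results. Summed progenitor markers (7 genes, among them the proliferation gene *Mki67*) ranged from 2604 to 3595 CPM across the *Mettl3*-CKO retinas and from 1856 to 2513 CPM in the controls, with 3 of 7 higher and 0 lower. Of the 7 estimates, 5 were positive and 2 negative, the lowest -0.12. A large part of the sum was *Ccnd1*, also one of the known targets below. It was at 1003 to 1526 CPM against 748 to 1097 CPM, with overlapping groups. The sum, not each marker, was higher along with *Gli1* and *Hhip*, and control replicate 1 was lowest in this sum too. Summed Müller glial markers (7 tested of 8) ranged from 1938 to 2052 CPM and from 1833 to 2232 CPM, with 1 higher and 1 lower. Astrocyte markers, in contrast, were lower in the *Mettl3*-CKO samples (55.1 to 84.6 CPM against 96.4 to 217.5 CPM, 3 of 6 lower and 0 higher). Rod markers also went the other way (1280 to 2363 CPM against 2502 to 3713 CPM, 5 of 8 lower). Summed vascular markers spanned 545.2 to 642.1 CPM and 577.5 to 665.5 CPM with 7 of 10 lower. Their median log2 fold change was -1.32 with 9 of 10 negative, so the sums do not reflect most of these genes. Erythrocyte markers spanned 4.29 to 7.18 CPM and 13.9 to 26.3 CPM with 2 of 3 tested lower. Markers of the retinal pigment epithelium ranged from 59.8 to 83.6 CPM and from 92.0 to 124.1 CPM, with 4 of 7 tested lower. Over all tested genes, 6.49% were called higher and 4.05% lower. The part of these cell types in the Hedgehog results was not tested.

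Within each sample, *Gli1* was expressed relative to other genes as a difference of log2 CPM, which no longer depends on the library total. The log2 ratio of *Gli1* to *Gli3* was -1.09 ± 0.20 in the *Mettl3*-CKO samples and -2.26 ± 0.42 in the controls (SD, n = 4 each). The groups did not overlap, and the difference of 1.17 had the smallest p that a two-sided exact permutation test over 70 splits can give, 0.0286, which adjusted over the 3 ratios planned was 0.0857. *Gli1* thus differed more than *Gli3* in these samples, but the ratio did not pass after adjustment. With 70 splits it could not pass unless another of the 3 ratios also separated the groups fully, so this outcome decides nothing. The 3 ratios were planned with earlier results of these data known. The log2 ratio of *Ptch1* to *Smo*, the receptor to the transducer it restrains, was 0.41 ± 0.07 and 0.39 ± 0.07, with overlapping groups (exact permutation p = 0.714, adjusted p = 0.714). *Shh* was set against the mean of 12 ganglion cell markers, since ganglion cells make it. That log2 ratio was -3.76 ± 0.28 and -3.88 ± 0.34, and the difference of 0.12 did not pass (exact permutation p = 0.571, adjusted p = 0.714). Summed ganglion cell markers ranged from 805.8 to 834.3 CPM and from 707.6 to 997.4 CPM, with 2 of 12 higher (*Pou4f1* and *Atoh7*). Both of these are in the denominator, so the ratio is not a level of *Shh* per ganglion cell.

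A second family of 4 ratios set *Gli1* and *Hhip* against the mean log2 CPM of progenitor or Müller glial markers. The ratios were chosen after these values were seen, for genes that already differed in the same 8 samples, and are therefore given as a description with no test. *Gli1* over progenitor markers was -1.74 ± 0.18 in the *Mettl3*-CKO samples and -2.79 ± 0.46 in the controls (SD, n = 4 each), a difference of 1.05 without overlap, and of 0.82 without control replicate 1. *Hhip* over progenitor markers differed by 0.40 with overlapping groups, less than its log2 fold change of 0.82 over the library. Over Müller glial markers, whose median log2 fold change was -0.06, *Gli1* differed by 1.62 and *Hhip* by 0.97, both without overlap.

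**Figure D4:**
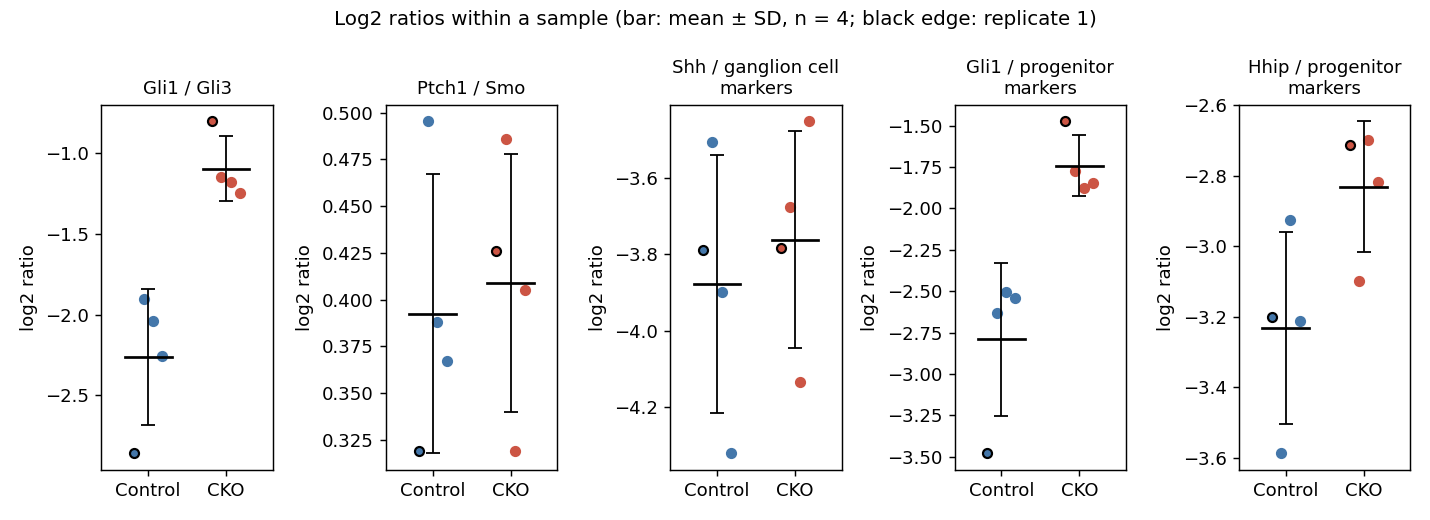
Log2 ratios within each sample for the 3 planned ratios and for *Gli1* and *Hhip* over progenitor markers, in control and *Mettl3*-CKO samples, with the mean and SD as bars, replicate 1 edged in black and a separate scale in each panel. *Gli1* over *Gli3* and *Gli1* over progenitor markers separate the groups, whereas *Ptch1* over *Smo*, *Shh* over ganglion cell markers and *Hhip* over progenitor markers overlap.

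Beyond the 9 genes, 43 further pathway genes were listed by role, of which 42 could be tested: 3 were higher, 3 were lower and 36 did not pass, with a median log2 fold change of -0.05. In edgeR's test on all 8 samples these counts are small and near the share of all tested genes called, 6.49% higher and 4.05% lower. The lower count was 8 without control replicate 1 and 9 in limma voom, while the higher count was 3 and 6. Of all genes, limma voom called 11.9% higher and 8.71% lower, and the fit without control replicate 1 called 1882 genes higher and 1289 lower. The nearness to the share was thus read for edgeR's test on all 8 samples alone. Among ligands and the proteins that release them, 6 of 7 were tested and 1 passed, *Scube1*, which encodes a secreted protein of a family that helps release lipid-modified ligand. *Scube1* was at 9.57 ± 1.36 CPM across the *Mettl3*-CKO retinas and 4.60 ± 1.35 CPM in the controls (SD, n = 4 each), without overlap, and the log2 fold change was 1.06 (standard error 0.20, adjusted p = 0.00711, edgeR). Its relative *Scube3* (log2 fold change -0.26, adjusted p = 0.197), the ligand transporter *Disp1* (0.25, adjusted p = 0.356) and the ligand acyltransferase *Hhat* (0.12, adjusted p = 0.731) did not pass in edgeR's test. *Scube3* was lower in limma voom (-0.33, adjusted p = 0.0144) and without control replicate 1 (-0.36, adjusted p = 0.0130, edgeR).

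Of 10 receptors and membrane factors, 2 were higher, 1 was lower and 7 did not pass. The coreceptor *Gas1* was at 110.3 ± 16.4 CPM against 74.5 ± 5.79 CPM (log2 fold change 0.57, standard error 0.11, adjusted p = 0.0078, edgeR). *Gpc3*, a glypican that binds the ligand and limits signalling, was at 36.4 ± 5.19 CPM against 24.1 ± 3.05 CPM (log2 fold change 0.59, standard error 0.12, adjusted p = 0.0106, edgeR). *Cdon*, a coreceptor closely related to *Boc*, was lower: 244.1 ± 26.0 CPM against 348.3 ± 18.3 CPM, so that its log2 fold change was -0.51 (standard error 0.09, adjusted p = 0.00465, edgeR). The 3 coreceptors of the ligand thus did not move together, with *Gas1* higher, *Cdon* lower and *Boc* not different beyond its error. Among the rest of the list, *Gpr161*, a ciliary receptor that restrains the pathway, had a log2 fold change of 0.29 (adjusted p = 0.0889) and *Mosmo* one of 0.16 (adjusted p = 0.297), neither of which passed in edgeR's test. DESeq2 and limma voom each called 4 of the 10 higher and 1 lower, where they called 8.38% and 11.9% of all genes higher and 5.79% and 8.71% lower. These 4 include *Evc* and *Evc2*, which did not pass in edgeR's test (log2 fold changes 0.31 and 0.38, adjusted p = 0.0627 and 0.0577).

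The cytoplasmic and GLI-controlling list held 14 genes, of which edgeR called 0 higher and 1 lower, with 12 negative estimates and a median of -0.13. DESeq2 called 1 of the 14 higher and 1 lower, and limma voom 0 higher and 5 lower. Of all genes, DESeq2 called 8.38% higher and 5.79% lower, and limma voom 11.9% and 8.71%. The lower gene in edgeR's test was *Dyrk2*, a kinase that can phosphorylate GLI2. It was at 188.7 ± 12.4 CPM across the *Mettl3*-CKO retinas and 254.1 ± 16.9 CPM in the controls (log2 fold change -0.43, standard error 0.08, adjusted p = 0.00669, edgeR). The protein kinase A subunits *Prkar1a* (-0.12, adjusted p = 0.488) and *Prkaca* (-0.21, adjusted p = 0.165) and the GLI degradation adaptor *Spop* (-0.07, adjusted p = 0.640) did not pass in edgeR's test, and of these *Prkaca* alone passed in limma voom (adjusted p = 0.0453). Of 12 genes of the primary cilium and its transport, edgeR called 0 higher and 1 lower, with 10 negative estimates. DESeq2 called 0 of the 12 higher and 2 lower, and limma voom 1 higher and 2 lower, beside the same shares of all genes. The lower gene in edgeR's test was *Iqce*, which anchors the EVC complex in the cilium, at 33.9 ± 2.01 against 43.3 ± 5.72 CPM (log2 fold change -0.35, standard error 0.10, adjusted p = 0.0494, edgeR). Its groups overlapped and it passed in only 5 of the 15 other fits, whereas *Scube1*, *Gas1*, *Gpc3*, *Cdon* and *Dyrk2* passed in 15 of 15. The intraflagellar transport genes *Ift88* (-0.03, adjusted p = 0.869), *Ift172* (-0.01, adjusted p = 0.955) and the kinesin *Kif3a* (0.05, adjusted p = 0.80) did not pass in edgeR's test.

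**Figure D5:**
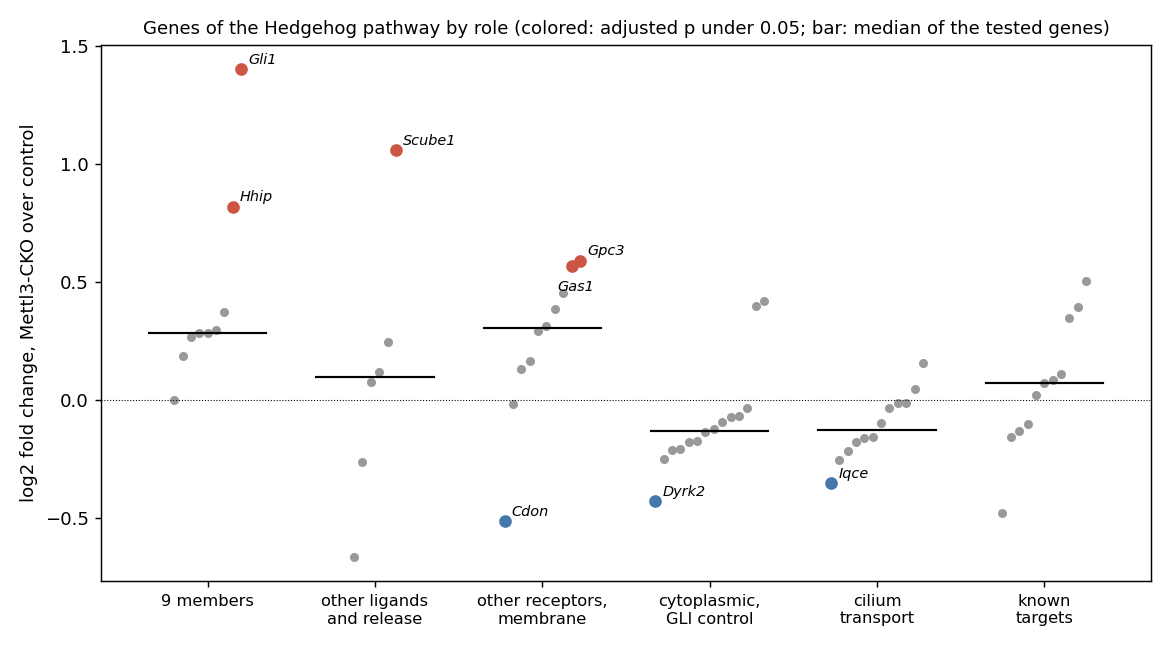
Log2 fold change (*Mettl3*-CKO over control) of every tested gene in the 9 Hedgehog genes and in 5 further lists by role, with a bar at each list's median and the genes that passed in color. The genes that passed are *Gli1*, *Hhip*, *Scube1*, *Gas1* and *Gpc3* as higher and *Cdon*, *Dyrk2* and *Iqce* as lower. Of the 11 known targets tested, 0 passed, too few genes to set apart from the 10.5% of all tested genes called.

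Of 16 genes known elsewhere as Hedgehog targets, apart from *Gli1*, *Ptch1* and *Hhip*, 11 were tested and 0 passed edgeR's test, with 2 at an unadjusted p under 0.05 (*Ccnd1* and *Hes1*). The D-type cyclin *Ccnd1* had a log2 fold change of 0.35 (unadjusted p = 0.0327, adjusted p = 0.158, edgeR) and is itself one of the progenitor markers above. *Hes1*, an effector of Notch signalling, had one of 0.50 (adjusted p = 0.0573, edgeR), and it passed in 7 of the 15 other fits, among them DESeq2 (adjusted p = 0.0204) and limma voom (adjusted p = 0.0451). *Foxf2*, whose counts were too low for edgeR's filter, was lower in DESeq2 (adjusted p = 0.000487). The proto-oncogene *Mycn* had an estimate of -0.16 (adjusted p = 0.209) and *Bmi1* one of -0.13 (adjusted p = 0.446), neither past the threshold in edgeR's test. The median of the 11 was 0.07. Among so few genes, 0 calls by edgeR cannot be told apart from the 10.5% of all tested genes called.

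The genes whose pattern over the 8 samples was nearest to a member were found by the root mean square difference of centred log2 CPM, among 14317 genes with a mean log2 CPM of at least 1. Nearest to *Gli1* were D030055H07Rik (0.218), *Fbxl7* (0.251) and *Aldh1a3* (0.258), with log2 fold changes of 1.53, 1.30 and 1.93. Nearest to *Ptch1*, at 0.0461 to 0.0490, were *Patz1*, *Repin1* and *Cdyl2*, and nearest to *Shh*, at 0.171 to 0.176, were *Baalc*, *Zfp239* and Gm14038. These genes were picked for their likeness over the same samples, which is a description.

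Because METTL3 methylates adenosine within a short motif, the sequence GGACT (the DNA form of the most common site) was counted in the longest coding transcript of each member in GENCODE vM21. Matches ranged from 0.220 per kilobase in *Hhip* (2 matches) to 2.20 per kilobase in *Ptch1* (17 matches), against a median of 1.05 over 14285 tested coding genes. *Ptch1*, *Smo* (2.12) and *Sufu* (1.99) were the densest members, and 7.93% of coding genes were at least as dense as *Ptch1*. Among the genes that were higher, *Gli1* had 5 matches (1.23 per kilobase, with 38.9% of genes at least as dense), and *Hhip* was among the sparsest (92.4% at least as dense). *Shh* had a single match at 0.351 per kilobase. RNA methylation was not measured in these counts, and a match is not a methylated site.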

How the data were processed

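RNA of whole mouse retina was measured in 4 control and 4 *Mettl3*-CKO samples, grouped by the sample labels. According to the methods, the authors aligned paired-end reads to GRCm38 (Hisat2) and summed them over genes (featureCounts). The authors deposited raw counts, whole numbers whose totals ranged from 16227095 to 20281517, so counting error is small except for *Shh* and *Boc*. The annotation release and strand setting are not given in the sources used here, and the library kit is not described as stranded, so reads of overlapping genes on opposite strands cannot be told apart.

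Counts were kept by filterByExpr (17998 genes), scaled by TMM and tested with edgeR 4.0.16 in R 4.3.3 (glmQLFit and glmQLFTest, Benjamini-Hochberg over all tested genes, threshold 0.05). The standard error is the absolute log2 fold change divided by the square root of F. CPM and FPKM were computed from the counts, and log2 CPM used a prior count of 2. DESeq2 1.42.0, limma 3.58.1 voom with sample quality weights, other scalings and filters, a replicate block and 8 fits without 1 sample each were run as alternatives. These make 15 other fits. The biological coefficient of variation was 15.0%. The fit was checked on simulated counts. No samples agreed within sampling noise (lowest chi-square 5.01 per gene within a group).

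The members, the lists and the tests were chosen with earlier results of these data known. All members are named, with every called gene of the other lists, up to 3 more per list with the highest level per length, the 3 genes nearest in pattern to *Shh*, *Ptch1* and *Gli1*, and the targeted gene. *Foxf2*, *Hes1*, *Ccnd1*, *Evc* and *Evc2*, the genes overlapping a member and a few marker genes were named after their values were seen. A gene that this rule covers is not reported here. Promoter windows are from RefSeq (GRCm38.p6), cut to the 250 bases before the start, and transcripts from GENCODE vM21, whose coordinates matched those of all 9 members. Single-cell RNA-seq and methylation data were not analysed here.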

Additional observations from a re-analysis of the deposited data

Results flagged for a closer look

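In 96 groups of 4 samples that were examined, 5 had a sample further from the nearest other than Dixon's 95% value of 0.829 allows, where chance would flag about 4.8. All 5 were control replicate 1. Its *Gli1* was 3.10 log2 CPM against 4.49 to 4.58 in the other controls. For *Gas1* it was at 6.05 log2 CPM against 6.26 to 6.30, and for *Ccnd1* at 9.55 against 10.03 to 10.1. The log2 ratio of *Gli1* over progenitor markers was -3.48 in this sample and between -2.63 and -2.51 in the others. Over Müller glial markers the log2 ratio of *Gli1* was -4.36, against -2.82 to -2.74. The last 2 share the *Gli1* value of this sample and are not separate evidence of its standing apart.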

How the results depend on the processing

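*Gli1* and *Hhip* passed in each of the 15 other fits, with log2 fold changes of 1.13 to 1.51 and 0.70 to 0.98. *Smo* passed in DESeq2 alone (0.27), and the other 6 members in none. *Sufu* changed sign with scaling by library totals (0.0041), without the filter (0.0034) and with the replicate block (0.0068), and ranged from -0.099 to 0.075 when 1 sample was left out. Of the other pathway genes, DESeq2 called 6 higher and 4 lower and voom 6 higher and 9 lower. The shares of all genes were 8.38% higher and 5.79% lower in DESeq2, and 11.9% and 8.71% in voom. Leaving out 1 sample gave 3 to 4 higher and 2 to 8 lower (8 without control replicate 1). Among the known targets, 1 was higher in DESeq2, 1 in voom, 1 with the replicate block and 2 without the filter, 1 was lower in DESeq2 and 1 without the filter, and leaving out 1 sample gave 0 to 1 in either direction. Over all genes, voom called 2142 higher and 1568 lower, an adjusted p under 0.01 left 439 and 147, and leaving out 1 sample gave 509 to 1882 higher and 185 to 1289 lower. The highest counts of the latter, 1882 and 1289, came without control replicate 1 and the lowest without *Mettl3*-CKO replicate 1. The cause of these differences was not tested. Without 1 sample, the ratio of *Gli1* to *Gli3* differed by 0.97 to 1.29, *Ptch1* to *Smo* by -0.0090 to 0.051 and *Shh* to ganglion cell markers by -0.032 to 0.24, and both last changed sign. The replicate numbers are shared by the groups, but same-numbered samples deviated together only in part (correlations of -0.111, 0.215, -0.114 and 0.249), and 4 of 8 samples correlated best with their own number. With the replicate block, *Gli1* was at 1.44 and *Hhip* at 0.84, and 2 members were higher and 0 lower.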
